A study of Mus musculus with 12 samples.

Results

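Phase II conjugation enzymes and the genes around the transcription factor NRF2 were followed in mouse kidney as a set of 54 genes. Every gene measured by a probe set with 1 gene symbol was taken if it belonged to the glutathione S-transferases (alpha, kappa, mu, omega, pi, theta and zeta classes), the UDP-glycosyltransferases or the cytosolic sulfotransferases. Nqo1, Hmox1, Gclc, Gclm, Txnrd1, Srxn1, Nfe2l2 and Keap1 were added by name. This gave 54 of the 19938 genes on the arrays, namely 19 glutathione S-transferases, 11 UDP-glycosyltransferases, 16 sulfotransferases and the 8 genes of the NRF2 pathway. The rule itself used gene names only, though it was set with earlier results of these data known. A gene with several probe sets was represented by the one with the highest mean, which applied to Gstm3 alone.

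Kidney RNA of female mice was hybridised to 12 Affymetrix whole-transcript arrays, 4 per group. The WT FGF23 group was wild type, carried the strain label C57BL/6 and received 500 ng of recombinant FGF23 per g of body weight. The KL null group carried the strain label 129/SvEv/C57BL/6, lacked klotho by genotype and received 100 µl of saline. The WT vehicle group was wild type, carried the strain label C57BL/6 and received 100 µl of saline. All mice had been on standard diet for 5 to 8 weeks, were injected once into the peritoneum and were killed 1 h later. The protocol calls the wild types littermates of the KL null mice, while the strain labels of the 2 genotypes differ, so that genotype and strain label cannot be told apart. The labels do not say whether each array is a separate mouse, so p-values measure only the spread between these arrays. FGF23 is a hormone made by bone that acts on the kidney through FGF receptors with klotho as its co-receptor.

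Conjugation attaches a polar group to a drug, hormone or reactive metabolite, so that it dissolves in water and can be excreted. Glutathione S-transferases attach glutathione, UDP-glycosyltransferases attach a sugar, most often glucuronic acid, and sulfotransferases attach sulfate. KEAP1 holds NRF2, the product of Nfe2l2, at a low level until electrophiles or oxidants modify it, after which NRF2 enters the nucleus and binds antioxidant response elements. Textbook NRF2 targets are the quinone reductase Nqo1, the heme oxygenase Hmox1, the catalytic (Gclc) and modifier (Gclm) subunits of glutamate-cysteine ligase, the thioredoxin reductase Txnrd1 and the sulfiredoxin Srxn1. In the kidney much of the conjugation takes place in the proximal tubule.

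The promoter windows of 3 genes are shown first, since these genes share a place in the NRF2 literature and moved in opposite directions in KL null kidneys. The windows run from 250 bases before to 50 bases after the start of the gene in RefSeq (GRCm38.p6), 5′ to 3′ on the gene's strand, and capitals mark each match to TGACNNNGC on either strand, the core of the antioxidant response element. Nqo1 lies at chr8:107403156-107403455 on the minus strand, Gclm at chr3:122245307-122245606 on the plus strand and Gsta3 at chr1:21240335-21240634 on the plus strand.
Nqo1: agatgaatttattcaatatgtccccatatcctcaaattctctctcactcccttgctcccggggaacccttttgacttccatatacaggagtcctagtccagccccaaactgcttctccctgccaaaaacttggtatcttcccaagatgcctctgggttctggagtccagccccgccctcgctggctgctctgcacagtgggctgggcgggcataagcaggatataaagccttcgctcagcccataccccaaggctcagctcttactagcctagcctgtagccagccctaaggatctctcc
Gclm: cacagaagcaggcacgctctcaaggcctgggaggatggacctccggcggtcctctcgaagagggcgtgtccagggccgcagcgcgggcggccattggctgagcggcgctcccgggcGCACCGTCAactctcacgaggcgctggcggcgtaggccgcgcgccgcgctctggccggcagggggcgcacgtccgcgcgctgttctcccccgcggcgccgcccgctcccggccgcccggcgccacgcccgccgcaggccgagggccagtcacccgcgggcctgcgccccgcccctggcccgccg
Gsta3: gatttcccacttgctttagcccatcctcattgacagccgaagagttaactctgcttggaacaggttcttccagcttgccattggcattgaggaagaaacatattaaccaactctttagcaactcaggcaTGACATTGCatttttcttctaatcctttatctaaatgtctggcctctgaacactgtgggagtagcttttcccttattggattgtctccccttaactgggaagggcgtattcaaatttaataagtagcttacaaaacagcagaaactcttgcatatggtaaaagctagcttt
The Gclm window held 1 match, 134 bases before the start, and the Gsta3 window held 1 match, 121 bases before the start. The Nqo1 window held none, which says only that these letters are not in this window. RefSeq windows were found for 48 of the 54 genes, 61 windows in all. Of these, 7 (11.5%) held the motif, against 12.4% of all 32851 windows in the table. They belonged to Gclm, Gsta3, Gstm5, Gstm7, Nfe2l2, Srxn1 and Txnrd1.

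The second set of windows belongs to Ugt2b38, the gene with the largest difference of the set, and to its closest relatives on chromosome 5. The windows lie at chr5:87424154-87424453 (Ugt2b38), chr5:87254739-87255038 (Ugt2b37) and chr5:87140291-87140590 (Ugt2b5), all on the minus strand of GRCm38.p6. In the lower pair, capitals mark bases with no identical partner in the Ugt2b38 window.
Ugt2b38: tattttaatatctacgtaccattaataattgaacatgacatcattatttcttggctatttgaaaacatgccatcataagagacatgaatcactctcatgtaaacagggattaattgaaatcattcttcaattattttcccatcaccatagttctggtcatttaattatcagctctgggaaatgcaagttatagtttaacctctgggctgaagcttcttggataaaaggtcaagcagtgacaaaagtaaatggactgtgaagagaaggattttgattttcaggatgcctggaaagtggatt
Ugt2b37: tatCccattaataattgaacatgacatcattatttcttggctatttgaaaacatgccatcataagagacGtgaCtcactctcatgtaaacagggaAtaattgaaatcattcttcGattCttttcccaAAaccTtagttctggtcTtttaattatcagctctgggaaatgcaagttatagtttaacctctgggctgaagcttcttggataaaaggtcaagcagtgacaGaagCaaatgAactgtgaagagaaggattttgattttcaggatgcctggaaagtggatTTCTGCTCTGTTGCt
Ugt2b5: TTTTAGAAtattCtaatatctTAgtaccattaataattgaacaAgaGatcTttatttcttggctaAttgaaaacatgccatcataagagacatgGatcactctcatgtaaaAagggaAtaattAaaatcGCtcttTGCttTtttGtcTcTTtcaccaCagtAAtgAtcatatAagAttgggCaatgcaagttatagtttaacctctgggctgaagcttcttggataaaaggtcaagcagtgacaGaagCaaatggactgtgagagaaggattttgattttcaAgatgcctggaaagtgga
The Ugt2b37 window matched that of Ugt2b38 at 273 of 314 aligned positions (86.9%), and the Ugt2b5 window did so at 261 of 310 (84.2%). Against the Ugt2b38 window, the other Ugt2b windows and that of Ugt2a3 reached 44.7% to 63.4%. In RefSeq the order along chromosome 5 is Ugt2b34, Ugt2b1, Ugt2b35, Ugt2b36, Ugt2b5, Ugt2b37, Ugt2a3 and Ugt2b38, so the 3 similar promoters are not all next to each other. The sequences of the probes were not used here, and near-identical paralogs may share probe signal, which makes the assignment of a value to 1 Ugt2b gene uncertain.

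Values below are log2 RMA intensities, differences are between group means on that scale, and a gene was called changed at an adjusted p below 0.05 (limma, Benjamini-Hochberg over all 19938 genes). Levels of different probe sets are not compared. The SD of all log2 values within an array ran between 2.166 and 2.281, with WT FGF23 replicates 1 and 2 and KL null replicates 1 and 2 at the low end. All 12 proximal tubule markers had a mean of at least 6, while none of 6 adrenal and none of 3 adipocyte markers did. Klotho (Kl) averaged 9.72 ± 0.07 in KL null and 10.61 ± 0.13 in WT vehicle kidneys (SD, n = 4 each), a difference of -0.89 (adjusted p = 1.75e-05). Where its probes lie relative to the deleted part is not given in the sources used here, so this difference does not check the genotype. Of the 54 genes, 33 had a mean of at least 6 over the arrays, namely 15 glutathione S-transferases, 7 UDP-glycosyltransferases, 3 sulfotransferases and all 8 NRF2 pathway genes. All 54 stayed in the tests. For Havcr1, the tubule injury marker KIM-1, WT FGF23 replicate 4 read 9.87 with the other WT FGF23 arrays between 5.01 and 5.66, and WT vehicle replicate 1 read 10.00 with the other WT vehicle arrays between 4.59 and 5.17. The counts of called genes among the 54 are therefore also given without this pair of arrays, an alternative chosen after seeing the data. Counts for the other lists below are given with all arrays only.

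The first comparison asked how the kidney without klotho differs from wild type when both received saline. Of the 54 genes, 9 were called (16.7%), of which 3 rose and 6 fell in KL null kidneys. Among all genes the called share was 8.01%, made up of 3.58% that rose and 4.44% that fell. Without adjustment, 17 of the 54 genes and 21.3% of all genes had a p below 0.05. The KL null and WT vehicle arrays did not overlap for 9 of the 54 genes, 4 higher and 5 lower, against 13.8% of all genes (6.35% higher, 7.44% lower). The median difference of the 54 genes was -0.02, against 0.03 over all genes. Among the UDP-glycosyltransferases 4 of 11 fell and none rose, among the glutathione S-transferases 2 of 19 rose and none fell, and among the NRF2 pathway genes 1 rose and 2 fell. The 11 hold no gene of the Ugt1a cluster, whose shared probe set was called higher in a fit over all probe sets (difference 0.34, adjusted p = 0.0307). The 19 hold neither Gsta1 nor Gsta2, whose shared probe sets differed by -0.12 to -0.09 in that fit. Those shared by Gstp1 and Gstp2 differed by -0.27 (adjusted p = 0.0808) and -0.28 (adjusted p = 0.138). None of these shared glutathione S-transferase probe sets was called. Without WT FGF23 replicate 4 and WT vehicle replicate 1, 4 of the 54 genes were called, 1 higher and 3 lower. No sulfotransferase was called by limma, and 3 of 16 had an unadjusted p below 0.05.

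Ugt2b38, a UDP-glucuronosyltransferase of the 2B subfamily, had the largest difference. Its values were 8.25, 8.11, 8.51 and 8.65 in KL null kidneys, against 10.55, 9.58, 10.37 and 10.40 in WT vehicle kidneys. The highest KL null array lay below the lowest WT vehicle array. The means were 8.38 ± 0.24 in KL null and 10.22 ± 0.44 in WT vehicle kidneys (SD, n = 4 each), a difference of -1.84 (SE 0.221, adjusted p = 0.000172), or 3.59-fold lower. All 4 KL null arrays were also below the 4 WT FGF23 arrays, which ran from 9.31 to 10.29.

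Ugt2b5, whose promoter resembles that of Ugt2b38, fell less. It measured 6.88, 6.36, 6.89 and 6.91 in KL null kidneys, against 7.64, 6.88, 7.51 and 7.30 in WT vehicle kidneys. The groups overlapped, because WT vehicle replicate 2 lay at the KL null level. The difference was -0.57 (SE 0.158, adjusted p = 0.0377), and it was not called without WT vehicle replicates 1, 3 or 4 or KL null replicates 2 or 3, left out one at a time (adjusted p 0.062 to 0.126). Ugt2b37, with the promoter most like that of Ugt2b38, had 6.80, 6.29, 6.87 and 7.10 in KL null kidneys, against 7.09, 6.34, 6.87 and 7.05 in WT vehicle kidneys. These ranges nearly coincide, and the difference of -0.07 was not called (adjusted p = 0.879). Ugt2b34, the other 2B gene with a mean of at least 6, differed by -0.03 (adjusted p = 0.932). The remaining 2B genes, Ugt2b1, Ugt2b35 and Ugt2b36, and Ugt2a3 had means below 6 and differences between -0.26 and 0.04.

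Both genes of the 3A subfamily read lower. Other probe sets are annotated to both genes together, and whether their single probe sets share signal was not tested. The 3A genes encode enzymes whose human counterparts use sugars other than glucuronic acid, UDP-N-acetylglucosamine for UGT3A1 and UDP-glucose for UGT3A2. Ugt3a1 had 10.29, 10.05, 10.31 and 10.25 in KL null kidneys, against 10.99, 10.83, 10.98 and 11.13 in WT vehicle kidneys. All 4 KL null arrays lay below all 8 wild-type arrays, and the difference was -0.76 (SE 0.139, adjusted p = 0.0038), 1.69-fold lower. Ugt3a2 had 11.80, 11.56, 11.67 and 11.65 in KL null kidneys, against 11.96, 11.95, 11.94 and 12.17 in WT vehicle kidneys. These 2 groups did not overlap, but the gap was narrow, and the KL null arrays did overlap the WT FGF23 arrays, which ran from 11.69 to 11.97. The difference from WT vehicle of -0.34 (SE 0.093, adjusted p = 0.0384) was not called in 7 of the 8 fits that left out 1 KL null or WT vehicle array (adjusted p 0.0576 to 0.11). Ugt8a, the ceramide galactosyltransferase of myelin lipid synthesis, averaged 8.58 in KL null and 8.26 in WT vehicle kidneys and was not called (difference 0.32, adjusted p = 0.242).

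**Figure D1:**
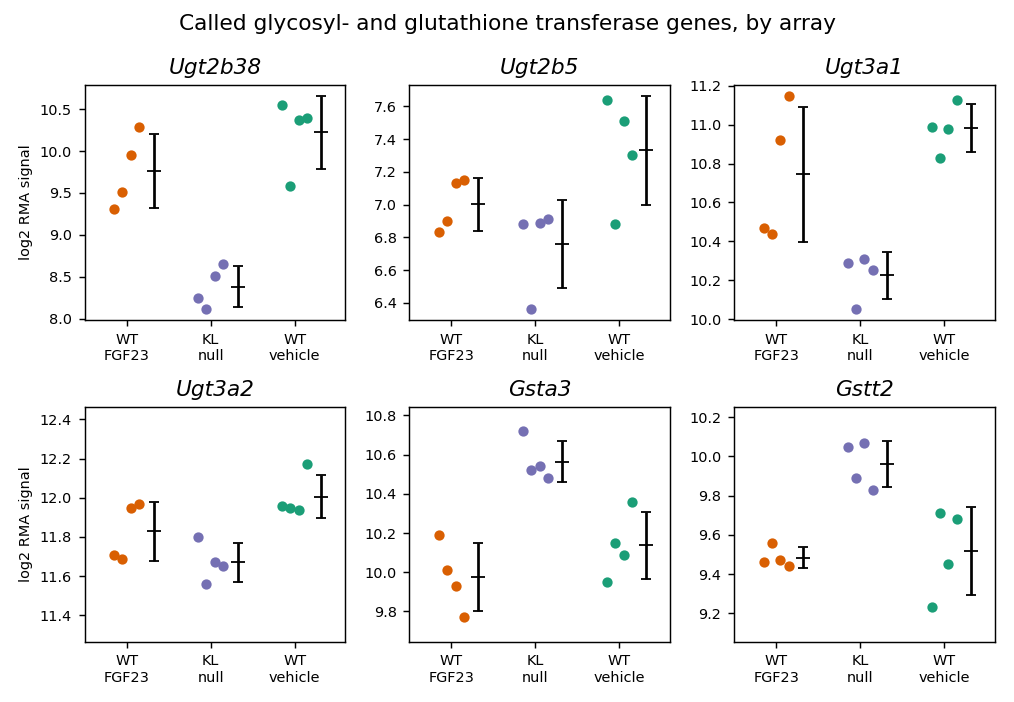
Log2 RMA intensity of the 6 called conjugation enzymes on each array (y axis, own range per gene) in WT FGF23, KL null and WT vehicle kidneys (x axis, 4 arrays each). Points are arrays and bars are the mean ± SD, with KL null low for Ugt2b38, Ugt2b5, Ugt3a1 and Ugt3a2 and high for Gsta3 and Gstt2.

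The glutathione S-transferases that were called rose. Gsta3, an alpha class enzyme known in mice for detoxifying the epoxide of aflatoxin, had 10.72, 10.52, 10.54 and 10.48 in KL null kidneys, against 9.95, 10.15, 10.09 and 10.36 in WT vehicle kidneys. Every KL null array exceeded every wild-type array. The difference was 0.43 (SE 0.106, adjusted p = 0.0225), 1.34-fold higher, and it was not called without WT vehicle replicates 1 or 3 or KL null replicates 1 or 3, left out one at a time (adjusted p 0.0519 to 0.0835).

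Gstt2, of the theta class, had 10.05, 9.89, 10.07 and 9.83 in KL null kidneys, against 9.23, 9.71, 9.45 and 9.68 in WT vehicle kidneys. Here too all 4 KL null arrays exceeded all 8 wild-type arrays, with a difference of 0.44 (SE 0.104, adjusted p = 0.0171), 1.36-fold higher. The call was lost without WT vehicle replicates 1 or 3 or KL null replicate 3, left out one at a time (adjusted p 0.0589 to 0.0631).

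The other 17 glutathione S-transferases were not called. The 7 mu class genes had differences between -0.21 for Gstm4 and 0.20 for Gstm5. Gsta4, which conjugates the lipid peroxidation product 4-hydroxynonenal, averaged 11.40 in KL null and 11.06 in WT vehicle kidneys (difference 0.34, adjusted p = 0.265). Gsto2, of the omega class, was higher on all 4 KL null arrays than on all 8 wild-type arrays without being called (difference 0.26, adjusted p = 0.0963). Gstm3 was lower on all 4 KL null than on all 4 WT vehicle arrays, also without a call (difference -0.20, adjusted p = 0.246). Its second probe set gave -0.14 (adjusted p = 0.511). Of the 19 genes, 11 had a positive and 8 a negative difference.

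Most sulfotransferases were dim in these kidneys, with 13 of 16 means below 6. The brighter ones were Sult1d1, Sult1c2 and Sult1a1. Sult1d1 differed by 0.33 (adjusted p = 0.106) and Sult1c2 by -0.33 (adjusted p = 0.184). Sult1a1, a phenol sulfotransferase, had 7.16, 8.14, 8.45 and 8.44 in KL null kidneys, against 7.50, 7.52, 7.36 and 7.59 in WT vehicle kidneys. KL null replicate 1 lay below the WT vehicle arrays and the other 3 KL null arrays above them. The difference was 0.56 (adjusted p = 0.137) with all arrays, and Sult1a1 was called without KL null replicate 1 (adjusted p = 0.000509). Leaving out the same array also brought a call for Gstp3, a pi class transferase (adjusted p = 0.0231), which with all arrays differed by 0.54 (adjusted p = 0.0714).

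**Figure D2:**
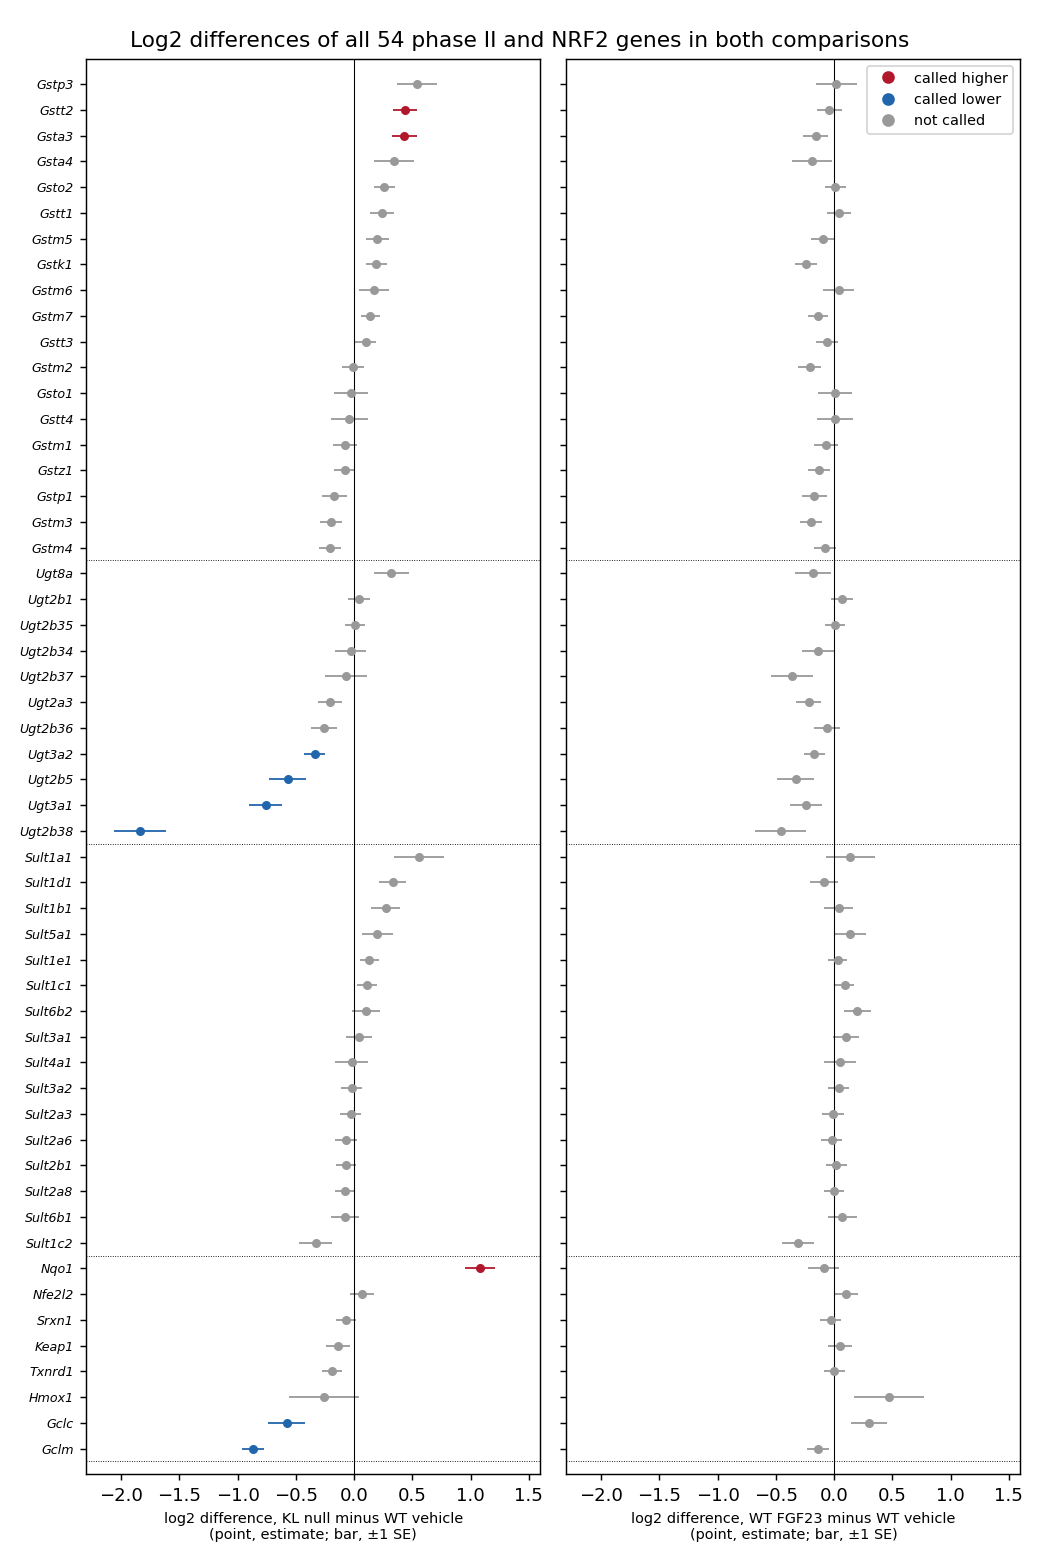
Difference of group means on the log2 scale (x axis) with 1 SE for each of the 54 genes (y axis, grouped by family), for KL null minus WT vehicle on the left and WT FGF23 minus WT vehicle on the right. Called genes are marked by colour, 3 higher and 6 lower on the left and none on the right, and both panels share the WT vehicle arrays.

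The NRF2 pathway genes moved in different directions in KL null kidneys. Nqo1, which reduces quinones to hydroquinones, had 9.82, 9.59, 9.49 and 9.45 in KL null kidneys, against 8.34, 8.48, 8.42 and 8.77 in WT vehicle kidneys. The groups were well apart, and the 4 WT FGF23 arrays, between 8.12 and 8.76, lay with the WT vehicle arrays. The means were 9.59 ± 0.17 in KL null and 8.50 ± 0.19 in WT vehicle kidneys (SD, n = 4 each), a difference of 1.08 (SE 0.132, adjusted p = 0.000187), 2.12-fold higher.

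Both subunits of glutamate-cysteine ligase, the rate-limiting enzyme of glutathione synthesis, fell. Gclm had 9.91, 10.06, 10.13 and 10.25 in KL null kidneys, against 10.96, 10.92, 11.05 and 10.91 in WT vehicle kidneys. All 4 KL null arrays lay below all 8 wild-type arrays, and the difference was -0.87 (SE 0.092, adjusted p = 5.42e-05), 1.83-fold lower. Gclc had 10.62, 11.00, 10.73 and 10.95 in KL null kidneys, against 11.66, 10.98, 11.81 and 11.17 in WT vehicle kidneys. The WT vehicle arrays were widely spread, and replicate 2 lay within the KL null range. The difference was -0.58 (SE 0.157, adjusted p = 0.0344), 1.49-fold lower, and was not called without WT vehicle replicates 1 or 3 or KL null replicates 1 or 3, left out one at a time (adjusted p 0.0798 to 0.117).

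The other 5 NRF2 pathway genes were not called. Nfe2l2, which encodes NRF2 itself, averaged 9.37 in KL null and 9.30 in WT vehicle kidneys (difference 0.07, adjusted p = 0.784). Keap1, its repressor, averaged 7.72 in KL null and 7.86 in WT vehicle kidneys (difference -0.14, adjusted p = 0.476). Txnrd1 differed by -0.19 (adjusted p = 0.241) and Srxn1 by -0.07 (adjusted p = 0.734). For Hmox1, which degrades heme, the KL null values were 8.25, 8.22, 7.49 and 8.96, against 8.99, 8.28, 8.34 and 8.33 in WT vehicle kidneys. Its arrays scattered more than those of any other gene of the set (within-group SD 0.537), and the difference was -0.26 (adjusted p = 0.71). Nqo1, Gclm, Ugt2b38 and Ugt3a1 were called in all 24 alternative fits, while the other 5 called genes lost the call in at least 1.

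**Figure D3:**
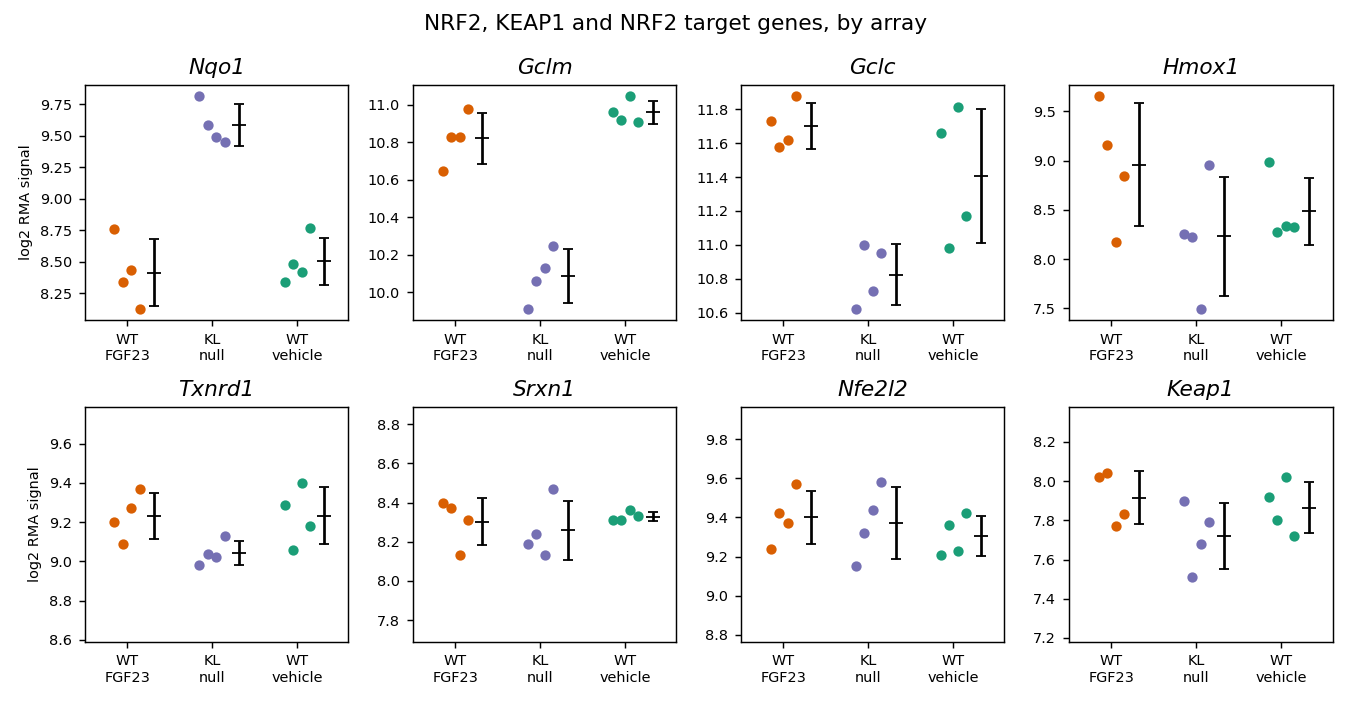
Log2 RMA intensity of the 8 NRF2 pathway genes on each array (y axis, own range per gene) in WT FGF23, KL null and WT vehicle kidneys (x axis, 4 arrays each), with the mean ± SD as bars. The KL null arrays lie above both wild-type groups for Nqo1 and below both for Gclm, and the groups overlap for Nfe2l2, Keap1, Srxn1, Txnrd1 and Hmox1.

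Other genes of these pathways, outside the 54, were read from the same fit. Of 23 other conjugation and cofactor genes, 6 rose and 2 fell in KL null kidneys (34.8% called, against 8.01% of all genes). That share is over genes of all levels, while 19 of these 23 had a mean of at least 6. Those that rose included Nat8, the N-acetyltransferase of cysteine conjugates (difference 1.06, adjusted p = 0.00159), and the microsomal epoxide hydrolase Ephx1 (0.81, adjusted p = 0.00047). Mgst1, a microsomal glutathione transferase, rose by 0.81 (adjusted p = 0.0025), and Ugdh, which makes the glucuronic acid donor, by 0.45 (adjusted p = 0.00579). Papss2, which makes the sulfate donor, had 11.05 ± 0.09 in KL null and 11.49 ± 0.09 in WT vehicle kidneys (SD, n = 4 each; difference -0.45, adjusted p = 0.00606). The other gene that fell was Acsm2, an acyl-CoA synthetase (difference -0.38, adjusted p = 0.0135). Its call was lost without WT FGF23 replicate 4 and WT vehicle replicate 1 (adjusted p = 0.0521). Papss1, which makes the same sulfate donor as Papss2, differed by -0.07 and was not called (adjusted p = 0.847).

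Of 17 further genes of glutathione synthesis, recycling and use, 3 fell and none rose (17.6% called, against 8.01% of all genes). Ggct, which cleaves gamma-glutamyl peptides, averaged 6.15 ± 0.32 in KL null and 7.16 ± 0.23 in WT vehicle kidneys (SD, n = 4 each; difference -1.01, adjusted p = 0.00181). The dipeptidase Dpep1 differed by -0.58 (adjusted p = 0.015), a call that was lost without WT vehicle replicates 1 or 3 or KL null replicate 3. Slc3a2, the heavy chain of several amino acid transporters including the cystine exchanger, differed by -0.46 (adjusted p = 0.0365), and its call was lost in 4 of the fits without 1 array. Neither Dpep1 nor Slc3a2 was called without WT FGF23 replicate 4 and WT vehicle replicate 1. Gss and Gsr, which complete glutathione synthesis and reduce its disulfide, differed by -0.12 (adjusted p = 0.494) and 0.03 (adjusted p = 0.937).

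Of 23 genes linked to NRF2 outside the 54, 4 rose and 4 fell (34.8% called, against 8.01% of all genes). Of those that rose, 1, Ugdh, is also among the conjugation genes above. The exporter of conjugates Abcc3 had the largest of these differences, with 7.71 ± 0.25 in KL null and 9.46 ± 0.36 in WT vehicle kidneys (SD, n = 4 each; difference -1.76, adjusted p = 0.000479). Malic enzyme Me1 (difference -0.58, adjusted p = 0.00243), the carbonyl reductase Cbr1 (-0.74, adjusted p = 0.0149) and the mitochondrial thioredoxin reductase Txnrd2 (-0.32, adjusted p = 0.0256) also fell. The biliverdin reductase Blvrb (0.37, adjusted p = 0.0166), the aldehyde oxidase Aox1 (0.41, adjusted p = 0.0151), Pir (0.44, adjusted p = 0.0367) and Ugdh rose. Aox1 and Pir had group means below 6, and their calls and that of Txnrd2 were each lost in some of the fits without 1 array. Without WT FGF23 replicate 4 and WT vehicle replicate 1, Aox1, Pir, Txnrd2 and Blvrb (adjusted p = 0.0547) were not called. Among 15 transcription factors and partners that regulate conjugation genes, 13.3% were called, against 8.01% of all genes. Nr1i3, the constitutive androstane receptor, rose by 0.52 (adjusted p = 0.01) and the hepatocyte and proximal tubule factor Hnf4a fell by 0.35 (adjusted p = 0.0177). Nr1i3 too had group means below 6, with 5.66 in KL null and 5.14 in WT vehicle kidneys. Without WT vehicle replicate 3 or KL null replicate 2, Hnf4a was not called. The same held without the pair of WT FGF23 replicate 4 and WT vehicle replicate 1. The xenobiotic sensors Ahr and Nr1i2 differed by 0.07 (adjusted p = 0.675) and 0.10 (adjusted p = 0.48).

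**Figure D4:**
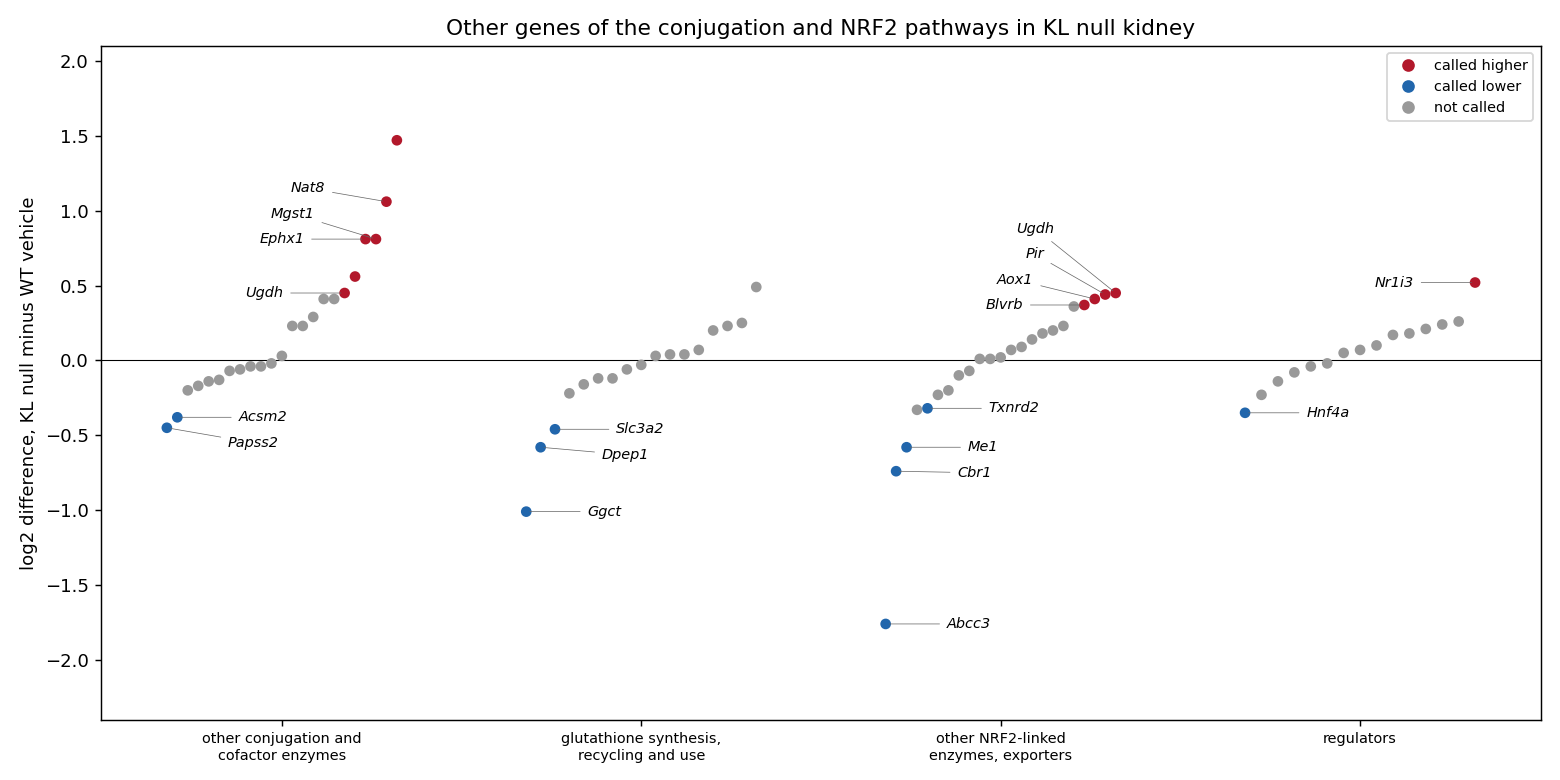
Difference of group means on the log2 scale, KL null minus WT vehicle (y axis), for the measured genes of 4 lists outside the 54 genes (x axis), ordered by difference within each list. Points are genes, red where called higher, blue where called lower and grey where not called, with Abcc3 at -1.76 as the lowest point.

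Markers of tubule, immune and other cells moved with these differences, and their part in them was not tested. Of 12 proximal tubule markers, 8 fell and none rose, among them the transporters Slc13a3 (difference -0.72, adjusted p = 0.0025) and Slc22a8 (-0.57, adjusted p = 0.0016). The mean of the 12 per array ran from 11.52 to 11.74 in KL null kidneys, against 11.92 to 12.13 in WT vehicle kidneys, without overlap. The mean of 5 loop and distal tubule markers overlapped, from 10.75 to 11.15 in KL null and from 10.87 to 11.33 in WT vehicle kidneys. Of these 5, 3 had a positive and 2 a negative difference, and only Slc12a3 was called, lower (-0.32, adjusted p = 0.0469). Other lists were lower without overlap too. The mean of 6 collecting duct markers ran from 8.96 to 9.03 in KL null kidneys, against 9.05 to 9.21 in WT vehicle kidneys. That of 4 endothelial markers ran from 8.79 to 9.00 in KL null kidneys, against 9.10 to 9.18 in WT vehicle kidneys. That of 3 podocyte markers ran from 7.81 to 8.10 in KL null kidneys, against 8.11 to 8.31 in WT vehicle kidneys. Of the 13 collecting duct, endothelial and podocyte markers only Podxl was called, lower. In whole kidney RNA, fewer cells of a type and less RNA per cell cannot be told apart. Of 8 macrophage markers 4 rose and 1 fell, and their mean ran from 6.91 to 7.69 in KL null kidneys, against 6.63 to 7.08 in WT vehicle kidneys. Of 4 tubule injury markers 3 rose, led by Lcn2 (difference 2.39, adjusted p = 0.000486), with a mean from 6.79 to 7.99 in KL null and from 5.70 to 7.38 in WT vehicle kidneys. The upper end in WT vehicle was replicate 1, the array high for Havcr1, whose 4 KL null values lay between 6.24 and 7.26 and which was not called (difference 0.57, adjusted p = 0.843). Of 8 genes known to be higher in male than in female mouse kidney, 3 rose and 2 fell, among them Kap (difference -1.50) and Cyp2e1 (1.33). The mean of these 8 ran from 7.60 to 7.82 in KL null and from 7.67 to 7.89 in WT vehicle kidneys. Of 5 hepatocyte markers 2 fell, Alb and Ttr, and the list mean ran from 6.07 to 6.49 in KL null and from 6.48 to 6.83 in WT vehicle kidneys.

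The second comparison asked what 1 h of FGF23 changed in wild-type kidney. It shares the WT vehicle arrays with the first, so the results of the 2 comparisons are not independent. Of the 54 genes, 0 were called by limma, against 0.0853% of all genes (0.0802% higher, 0.00502% lower), and 3 had an unadjusted p below 0.05, against 15.4% of all genes. The differences of the 54 genes ran from -0.46 to 0.47, with a median of -0.02, against 0.04 over all genes. Negative differences were seen for 29 of the 54 genes, against 41.1% of all genes. By family, 13 of 19 glutathione S-transferases and 9 of 11 UDP-glycosyltransferases were negative, while 12 of 16 sulfotransferases were positive. In the conjugation families, level went partly with sign. Among genes with a mean of at least 6, 13 of 15 glutathione S-transferases, 7 of 7 UDP-glycosyltransferases and 2 of 3 sulfotransferases were negative. The 8 NRF2 pathway genes, all with a mean of at least 6, were 5 positive and 3 negative. Below a mean of 6, all 4 glutathione S-transferases were positive, and of 4 UDP-glycosyltransferases 2 were positive and 2 negative. Of the 12 positive sulfotransferases, 11 had a mean below 6. Over all genes the median difference was 0.04, and it was -0.03 over genes with a mean of at least 6. The groups did not overlap for 1 of the 54 genes, which was lower, against 7.01% of all genes (4.09% higher, 2.92% lower). The count called stayed at 0 without WT FGF23 replicate 4 and WT vehicle replicate 1.

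The gene without overlap was Gstk1, the kappa class transferase of mitochondria and peroxisomes. It had 9.49, 9.40, 9.56 and 9.36 in WT FGF23 kidneys, against 9.59, 9.74, 9.57 and 9.89 in WT vehicle kidneys. The highest WT FGF23 array lay only just below the lowest WT vehicle array, and the difference of -0.24 was not called (adjusted p = 0.273). The other 7 genes with the smallest p-values were lower too, without a call. Sult1c2 differed by -0.31 (adjusted p = 0.313), Gstm2 by -0.21 (adjusted p = 0.314), Ugt2a3 by -0.22 (adjusted p = 0.327) and Gstm3 by -0.20 (adjusted p = 0.332). The second probe set of Gstm3 went the other way, by 0.13 (adjusted p = 0.529). Ugt2b5 differed by -0.33 (adjusted p = 0.333), Ugt2b38 by -0.46 (adjusted p = 0.333) and Ugt2b37 by -0.36 (adjusted p = 0.337).

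For Ugt2b38 the single arrays were 9.31, 9.51, 9.95 and 10.29 in WT FGF23 kidneys, against 10.55, 9.58, 10.37 and 10.40 in WT vehicle kidneys. The ranges overlapped through WT vehicle replicate 2, which was also the lowest WT vehicle array for Ugt2b5, Ugt2b37 and Gclc. WT FGF23 replicates 1 and 2, the lower ones for Ugt2b38, were the arrays with the smallest spread of values. The difference of Ugt2b38 was -0.10 without them (adjusted p = 0.996) and 0.03 with the array spread as a covariate (adjusted p = 0.988).

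No NRF2 pathway gene was called after FGF23. Hmox1 had 9.66, 9.16, 8.17 and 8.84 in WT FGF23 kidneys, against 8.99, 8.28, 8.34 and 8.33 in WT vehicle kidneys. WT FGF23 replicates 1 and 2 lay above every WT vehicle array and replicate 3 below them, and the difference was 0.47 (adjusted p = 0.443). It was 0.24 without WT FGF23 replicate 1, 0.73 without WT FGF23 replicate 3 and 0.02 without WT FGF23 replicates 1 and 2. Gclc had 11.73, 11.58, 11.62 and 11.88 in WT FGF23 kidneys, against 11.66, 10.98, 11.81 and 11.17 in WT vehicle kidneys (difference 0.30, adjusted p = 0.37). The WT FGF23 arrays of Gclc were close together, while those of WT vehicle were not. Gclm differed by -0.14 (adjusted p = 0.463), Nfe2l2 by 0.10 (adjusted p = 0.651) and Nqo1 by -0.09 (adjusted p = 0.746). Keap1 differed by 0.05 (adjusted p = 0.824), Srxn1 by -0.03 (adjusted p = 0.905) and Txnrd1 by 0.00 (adjusted p = 1). None of the other pathway genes named above was called either, with 0 of 23 conjugation, 0 of 17 glutathione, 0 of 23 NRF2-linked and 0 of 15 regulator genes. Among all genes the called share was 0.0853%.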

How the data were processed

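Kidney RNA was measured on Affymetrix whole-transcript arrays. The deposited values are log2 intensities from RMA, run by the authors in Partek 6.2 according to the submitters' processing notes. They were used as deposited. Of 28853 probe sets, 21789 carried 1 gene symbol in the platform annotation, 1621 several and 5443 none. Only the first kind was used, with the probe set of highest mean for each of 19938 genes. One model with 3 group means (limma 3.58.1, lmFit followed by eBayes, under R 4.3.3, with 9 residual degrees of freedom) was fitted to all genes without a filter. In simulated independent normal values, it recovered 97.5% of 200 log2 changes of 1 in KL null against wild type, with 12 false calls. Smaller changes and differences between whole arrays were not simulated, so this does not cover most differences reported here. P-values were two-sided, adjusted by Benjamini-Hochberg over all genes, and called below 0.05. The number of arrays limits the precision.

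The genes and lists were chosen with earlier results of these data known. Named were the 8 NRF2 pathway genes, all called genes, the 8 of smallest p where fewer than 5 were called, the 5 with the largest within-group SD and, per list and direction, up to 4 called genes of smallest p. Other genes in the text were chosen after their values were seen. The alternatives were other scalings, the array spread as a covariate, array weights, a filter at a mean of 6, other probe set and moderation rules, 2 groups alone, a replicate block and fits without arrays. Sequences are from RefSeq.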

Additional observations from a re-analysis of the deposited data

Results flagged for a closer look

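In 6 of 123 groups of 4 arrays tested (41 genes in 3 groups), 1 array stood apart from the other 3, and chance flags about 1 in 20 such groups. WT FGF23 replicate 3 had 8.05 for Gstm2, with the others between 7.62 and 7.67. WT FGF23 replicate 2 had 5.07 for Aox1, with the others between 4.84 and 4.86. KL null replicate 2 had 6.36 for Ugt2b5, with the others between 6.88 and 6.91. KL null replicate 1 had 11.76 for Acsm2, with the others between 11.55 and 11.57. WT vehicle replicate 1 had 8.99 for Hmox1, with the others between 8.28 and 8.34. WT vehicle replicate 4 had 12.17 for Ugt3a2, with the others between 11.94 and 11.96.

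Probe sets annotated to several genes were outside the comparisons, and 12 of them list a gene of these families. In KL null against WT vehicle kidneys, 3 of the 12 were called by limma, against 6.1% of all 28853 probe sets. Several of the 12 list the same genes, so they are not separate units and the count cannot be read as an excess. The probe set shared by 8 genes of the Ugt1a cluster differed by 0.34 (adjusted p = 0.0307). The 2 shared by Ugt3a1 and Ugt3a2 differed by -0.42 (adjusted p = 0.0201) and -0.39 (adjusted p = 0.0316). They were lower in KL null, as were the probe sets of either gene alone, but they are not a separate measure of either gene.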

How the results depend on the processing

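In KL null against WT vehicle, 9 genes were called (3 higher, 6 lower). The count was 14 (8 higher, 6 lower) with array quality weights and 4 to 12 when 1 array was left out. It was 4 without WT vehicle replicate 1, WT vehicle replicate 3 or KL null replicate 3, and 12 without KL null replicate 1. It was 8 (4 higher, 4 lower) after further quantile normalization, 11 (5 higher, 6 lower) with the array spread as a covariate and 10 (5 higher, 5 lower) without WT FGF23 and KL null replicates 1 and 2, an alternative chosen after seeing the data. It was 4 (1 higher, 3 lower) without WT FGF23 replicate 4 and WT vehicle replicate 1, also chosen after seeing the data. The genes gained in at least 1 alternative were Gstm5, Gstp3, Sult1a1, Sult1b1, Sult1d1 and Ugt8a, higher, and Sult1c2, lower. After FGF23, 0 of the 54 were called in all 24 alternatives, and the median difference was -0.133 with only genes of mean at least 6.

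Directions reversed for uncalled differences. After FGF23 these were Gclm (0.01), Ugt2b38 (0.03) and Keap1 (-0.02) with the spread as a covariate, Keap1 also with array weights (-0.01) and without WT FGF23 replicates 1 and 2 (-0.07, in both fits without them), Srxn1 after quantile normalization (0.02) and without WT FGF23 replicate 3 (0.03), and Nqo1 without WT FGF23 replicate 4 (0.01). With 1 array left out, Srxn1 ran from -0.06 to 0.03 and Nqo1 from -0.21 to 0.01. In KL null kidneys it was Ugt2b37, with the spread as a covariate (0.05), without WT vehicle replicate 1 (0.01), without KL null replicate 2 (0.09) and in the alternatives chosen later (0.15 without WT FGF23 and KL null replicates 1 and 2, and 0.01 without WT FGF23 replicate 4 and WT vehicle replicate 1), with -0.24 to 0.09 over the fits without 1 array. Over the 52 differences of named genes and their alternatives there were 1243 values, of which 1147 kept direction and call, 75 lost the call, 7 gained it and 14 reversed. Gained calls of genes outside these 52 are not in this count. Many alternatives cannot change a difference, such as those without arrays of the group not compared or with another moderation. The number that kept direction is therefore partly fixed in advance and does not measure robustness. The cause was not tested.

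Replicate numbers showed no clear pairing of the arrays within either comparison, though 4 arrays per group are too few to settle this. Deviations of same-numbered arrays correlated between -0.22 and 0.19 for WT FGF23 with WT vehicle and between -0.14 and 0.17 for KL null with WT vehicle, and 1 of 4 and 0 of 4 were best with their own number. For WT FGF23 with KL null, which were not compared, all 4 lay between 0.14 and 0.26 and 3 of 4 were best with their own number. With the number as a replicate block, 9 genes were called in KL null kidneys (3 higher, 6 lower) and 0 after FGF23, and Slc3a2 lost its call (adjusted p = 0.0509).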

Other observations

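Arrays of 1 group differed most for Hmox1, Ugt2b38, Sult1a1, Ugt2b37 and Gstp3. Gstp3 had 5.45, 6.05, 5.68 and 6.25 in KL null kidneys, against 5.29, 5.57, 5.23 and 5.18 in WT vehicle kidneys, with KL null replicate 1 inside the WT vehicle range. In WT FGF23 kidneys Sult1a1 had 7.70, 7.85, 7.56 and 7.40 and Gstp3 5.72, 5.47, 5.03 and 5.13. Inmt, a methyltransferase, and Hpgds, the glutathione-dependent prostaglandin D synthase, were the remaining called conjugation genes in KL null kidneys (differences 1.47, adjusted p = 0.0301, and 0.56, adjusted p = 0.0228). Hpgds had group means below 6 (5.70 in KL null and 5.13 in WT vehicle kidneys), and its KL null and WT vehicle arrays overlapped. Inmt averaged 11.95 ± 0.10 in KL null and 10.48 ± 1.06 in WT vehicle kidneys (SD, n = 4 each), with the WT vehicle arrays widely spread.

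Of the windows of the 54 genes, 26.2% held GCGTG on either strand, the core of the xenobiotic response element, against 32.4% of all windows, and 14.8% held GTTAAT, a part of the HNF1 motif, against 7.1% of all windows. These are descriptions of letters, without a test.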
